A study of Mus musculus with 18 samples.

Results

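The Cyp4 genes encode cytochrome P450 enzymes that hydroxylate fatty acids, and 10 of them were followed here in mouse kidney: Cyp4b1, Cyp4a12a, Cyp4a12b, Cyp4a10, Cyp4a31, Cyp4a32, Cyp4a14, Cyp4f13, Cyp4f15 and Cyp4v3. They were taken by symbol from a table of 19518 genes, and the list was chosen with earlier results of these data known. All 10 reached a signal of 1 in no fewer than 3 libraries, the condition for being tested. The 18 kidney libraries came from ICR mice, an outbred strain, aged 10 weeks, and formed 6 groups of 3. The groups were mice on a high fat diet (HFD) with the treatment labelled AOS 10 mg/kg-FMT (HFD+AOS-FMT), HFD mice with control-FMT (HFD+control-FMT), HFD mice that also had AOS, 10 mg/kg (HFD+AOS), mice with AOS at the same dose but without the high fat diet (AOS), mice on the diet alone (HFD) and controls. FMT is faecal microbiota transplantation, and the series asks how it acts on kidneys harmed by the diet. The labels do not spell out AOS, describe the donors of the transplants or the diet, or give the sex of the mice. They also do not say that each library is a separate animal, so p-values measure the spread between these libraries, which may be technical. The values are the authors' normalized signal, whose unit is not stated. From the column sums it appears to be scaled for gene length and sequencing depth, and levels of different genes are compared below on that signal.

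Cyp4 enzymes add a hydroxyl group to the last (omega) carbon of a fatty acid, a step that opens the way to chain shortening in peroxisomes. In the kidney, Cyp4a enzymes of the proximal tubule and small arteries also turn arachidonic acid into a product that constricts arterioles and reduces salt reabsorption. In mouse kidney Cyp4a12a and Cyp4b1 are known to be raised by androgens, Cyp4a14 to be higher in females, and Cyp4a10 and Cyp4a14 to be induced through the fatty acid receptor PPAR alpha. Cyp4f enzymes act on leukotrienes and other long-chain fatty acids, and Cyp4v3 is the mouse counterpart of human CYP4V2, which is mutated in a crystalline disease of the retina.

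The Cyp4a genes lie together with Cyp4b1 on chromosome 4 (GRCm38, GENCODE M21), and several are recent copies of each other, so their sequences are shown before their values. Coding sequences of Cyp4a12a and Cyp4a12b were identical at 1501 of 1524 aligned bases (98.5%). Cyp4a10 was 97.2% identical to Cyp4a32 and 96.6% identical to Cyp4a31, and Cyp4a31 and Cyp4a32 were 96.0% identical. Cyp4a14 stood further away, at 75.1% to 76.1% identity with the other Cyp4a genes, and the Cyp4f13 and Cyp4f15 pair was at 74.8%. A stretch of 123 coding bases centred on the codon of the haem-binding cysteine, the residue that holds the iron of every P450, is given here from the reference transcripts, with capitals marking bases that differ from the first sequence of each set.
Cyp4a10: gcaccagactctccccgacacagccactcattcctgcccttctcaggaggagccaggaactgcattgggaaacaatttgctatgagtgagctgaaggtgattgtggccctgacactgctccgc
Cyp4a31: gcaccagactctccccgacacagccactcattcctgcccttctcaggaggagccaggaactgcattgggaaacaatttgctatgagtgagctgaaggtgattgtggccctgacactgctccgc
Cyp4a32: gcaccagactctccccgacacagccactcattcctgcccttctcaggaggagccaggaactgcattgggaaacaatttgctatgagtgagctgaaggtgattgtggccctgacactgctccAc
Cyp4a14: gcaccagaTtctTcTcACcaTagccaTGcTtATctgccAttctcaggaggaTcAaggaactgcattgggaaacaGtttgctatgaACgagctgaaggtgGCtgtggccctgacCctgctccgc
The stretch starts at coding base 1306 in Cyp4a10, Cyp4a31 and Cyp4a32 and at coding base 1300 in Cyp4a14. Over the whole stretch Cyp4a10 and Cyp4a31 have no difference, Cyp4a32 differs by 1 base near its end, and Cyp4a14 by 20 bases. The matching stretch of the Cyp4a12 pair, from coding base 1303, is the same in both genes.
Cyp4a12a: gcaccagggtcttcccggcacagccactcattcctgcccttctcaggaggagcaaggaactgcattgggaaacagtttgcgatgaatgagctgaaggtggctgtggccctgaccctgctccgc
Cyp4a12b: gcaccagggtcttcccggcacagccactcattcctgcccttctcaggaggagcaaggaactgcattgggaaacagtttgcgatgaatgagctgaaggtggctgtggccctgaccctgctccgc
The stretches of 123 bases with the most differences between copies were found at coding base 157 for the Cyp4a10 group, with 6 differences in Cyp4a31 and 13 in Cyp4a32, and at coding base 641 for the Cyp4a12 pair, with 8 differences.
Cyp4a10: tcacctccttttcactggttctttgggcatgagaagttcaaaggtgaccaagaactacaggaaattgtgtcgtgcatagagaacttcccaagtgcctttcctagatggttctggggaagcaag
Cyp4a31: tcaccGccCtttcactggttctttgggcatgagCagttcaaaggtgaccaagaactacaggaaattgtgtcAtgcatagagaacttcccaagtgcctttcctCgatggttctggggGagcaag
Cyp4a32: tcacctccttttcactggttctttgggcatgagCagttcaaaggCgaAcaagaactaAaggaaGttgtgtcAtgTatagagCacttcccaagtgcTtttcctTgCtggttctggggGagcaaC
Cyp4a12a: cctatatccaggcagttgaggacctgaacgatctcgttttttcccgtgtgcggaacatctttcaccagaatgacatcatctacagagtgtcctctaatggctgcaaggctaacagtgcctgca
Cyp4a12b: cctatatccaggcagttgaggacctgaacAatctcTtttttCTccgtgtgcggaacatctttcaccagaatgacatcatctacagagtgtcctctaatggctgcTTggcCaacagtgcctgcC

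Among 141767 reference transcripts, 48.9% of the 50-base windows of the Cyp4a12a transcript also occurred in Cyp4a12b. The share found in another Cyp4 gene was 49.4% for Cyp4a12b, 46.8% for Cyp4a32, 30.5% for Cyp4a10, 20.1% for Cyp4a31 and 10.3% for Cyp4b1, whose matches were 2 Cyp4b1 pseudogenes. It was 2.70% for Cyp4f13, 2.45% for Cyp4f15, 0.245% for Cyp4a14 and 0% for Cyp4v3. Windows shared with any gene came to 7.02% for Cyp4v3, with 1 other gene, and to 21.8% for Cyp4a31, and outside the Cyp4 genes the remaining 8 members shared none. How the authors counted such reads is not given in the sources used here. Signal may be split wrongly between copies, and sums over copies are given beside single values. The reference genome is of another strain than ICR, so the copies of these outbred mice may differ from it.

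**Figure D1:**
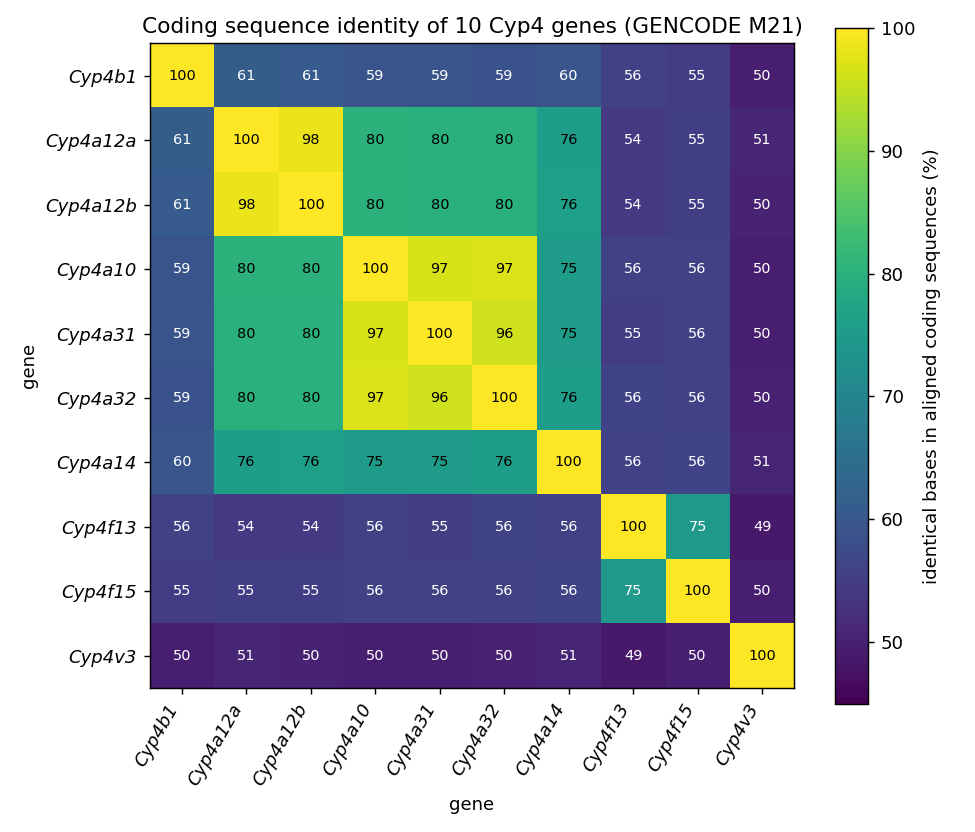
Percent of identical bases between the aligned coding sequences of each pair of the 10 Cyp4 genes, in the GENCODE M21 reference; rows and columns are genes and colour runs from low to full identity. The Cyp4a12a and Cyp4a12b pair (98.5%) and the Cyp4a10, Cyp4a31 and Cyp4a32 trio (96.0% to 97.2%) form the brightest blocks off the diagonal.

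RefSeq promoter sequence of GRCm38.p6, the 250 bases before the annotated start, was matched by symbol for 5 of the 10 genes. It is shown for Cyp4b1, the member with the most signal, at chr4:115647722-115647971 on the minus strand, and for Cyp4a32, called below between HFD+AOS and HFD when 1 library was left out, at chr4:115600688-115600937 on the plus strand. Capitals mark AGAACA or its reverse complement TGTTCT, one arm of the steroid hormone response element.
Cyp4b1: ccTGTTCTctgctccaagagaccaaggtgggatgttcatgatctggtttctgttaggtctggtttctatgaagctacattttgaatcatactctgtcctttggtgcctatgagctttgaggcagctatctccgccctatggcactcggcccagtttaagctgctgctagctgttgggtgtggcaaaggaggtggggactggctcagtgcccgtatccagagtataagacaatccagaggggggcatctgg
Cyp4a32: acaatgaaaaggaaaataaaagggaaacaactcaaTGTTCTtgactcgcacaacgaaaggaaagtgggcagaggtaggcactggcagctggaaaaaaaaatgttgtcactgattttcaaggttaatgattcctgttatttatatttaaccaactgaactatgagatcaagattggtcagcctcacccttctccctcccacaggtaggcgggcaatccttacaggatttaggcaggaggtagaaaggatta
Each holds 1 match, as did 16.1% of 32851 mouse promoters of this length. Neither holds AGGTCA or TGACCT, the core letters bound by PPAR alpha and related receptors, which 14.02% of those promoters held. Cyp4v3, Cyp4f13 and Cyp4f15, also matched, held neither motif in this window.

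Several libraries stood apart, and results that rest on them are given with and without them. In control replicate 3, 49.7% of 12030 tested genes had their highest value of the 18 libraries, and 9.38% had their lowest. All 8 adrenal gland markers were highest there, with a sum of 973 against 1.55 to 4.28 in the other 17. The androgen responsive list was lowest there for 11 of 16 genes, with a sum of 18848 against 120919 to 172053, and the 4 Y-linked genes of the table were nevertheless present, with Ddx3y at 7.32 against 9.05 to 13.2. All 13 markers of the proximal tubule, a segment that expresses Cyp4a enzymes, were detected, and summed to 5856 in control replicate 3 and to 7307 to 11276 elsewhere. Of these 13 markers, 7 were lowest in control replicate 3 and 1, Slc5a12, was highest. Markers of other kidney cells were higher in that library, with sums of 2180 against 1054 to 2071 elsewhere for the loop and distal tubule (5 of 7 highest there), 403 against 115 to 249 for the collecting duct (6 of 7), 106 against 29.2 to 70.1 for podocytes (6 of 6) and 195 against 72.3 to 143 for endothelium (5 of 5). Of the testis germ cell markers, the 9 besides Smcp were found in 5 libraries, the 3 controls and HFD replicates 1 and 2, where they summed to 27.5 to 41.9, against 0 to 0.30 in the rest. Markers of liver cells summed to 7.66 to 60.9 and of fat cells to 11.1 to 121 across the 18 libraries. In these whole-kidney samples, fewer cells of a type and less RNA per cell cannot be told apart.

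Cyp4b1 gave most of the family's signal, with a median of 81.0% of the summed signal of the 10 genes over the 18 libraries. Cyp4a12a gave 13.4%, Cyp4a10 2.66% and Cyp4a31 1.28%. In the 17 libraries other than control replicate 3, signal ran from 2136 to 3509 for Cyp4b1, 359 to 646 for Cyp4a12a, 59.1 to 157 for Cyp4a10 and 18.1 to 72.9 for Cyp4a31, so the upper 3 genes did not overlap and the ranges of Cyp4a10 and Cyp4a31 did. Cyp4f13 ranged from 20.99 to 24.2, inside the range of Cyp4a31. The remaining genes were low and overlapped each other, with Cyp4a14 at 1.15 to 8.56, Cyp4a12b at 1.18 to 7.83, Cyp4v3 at 1.32 to 2.44, Cyp4a32 at 1.01 to 2.50 and Cyp4f15 at 0.370 to 1.42.

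**Figure D2:**
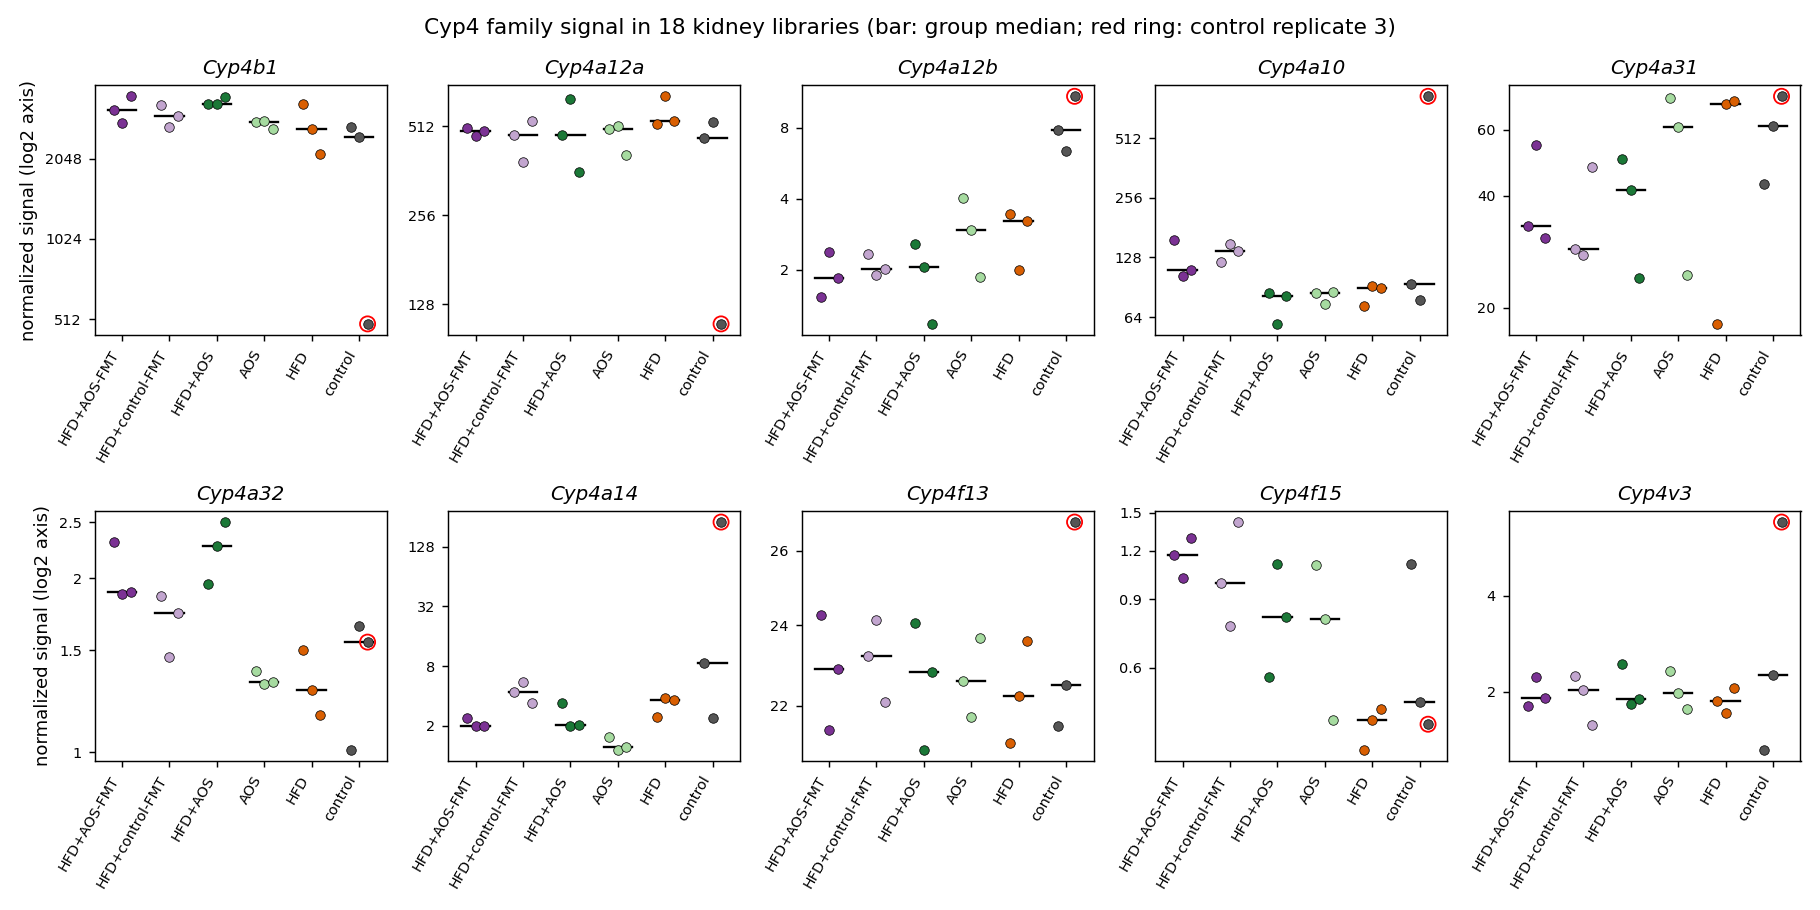
Normalized signal of each Cyp4 gene in the 18 kidney libraries, 1 panel a gene, on a log2 axis whose range differs between panels; points are libraries, bars are group medians and the red ring marks control replicate 3. The ringed library is lowest for Cyp4b1 (492) and Cyp4a12a (110.1). It is highest for Cyp4a10 (831), Cyp4a14 (227), Cyp4v3 (6.80), Cyp4f13 (26.8) and, narrowly, Cyp4a31 (73.8), while the 3 controls are highest for Cyp4a12b.

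The comparisons were fitted over all tested genes with limma on log2(signal + 1), with adjusted p-values by Benjamini-Hochberg and a threshold of 0.05. In HFD+AOS-FMT against HFD, 0 of the 10 genes passed (0.175% of all tested genes did), 2 had an unadjusted p under 0.05 (13.3% of all) and 5 had groups that did not overlap (25.2% of all). HFD+control-FMT against HFD gave 0 of 10 that passed (0% of all), 1 with an unadjusted p under 0.05 (4.5%) and 2 without overlap (15.4%). HFD+AOS-FMT against HFD+control-FMT gave 0 (0%), 0 (7.02%) and 2 (18%). For HFD+AOS against HFD the counts were 0 (0.823%), 1 (15.1%) and 2 (28.2%), and for HFD+AOS against AOS 0 (0%), 1 (11.1%) and 3 (24.2%). AOS against control gave 0 (0.0333%), 2 (12.7%) and 2 (13.2%), and HFD against control gave 0 (0%), 3 (17.4%) and 1 (15.7%). The test of whether the AOS difference depended on the diet passed for 0 of 10 (0% of all), with 2 at an unadjusted p under 0.05 (12.4%). The F test for any difference among the 6 groups passed for 1 of 10, Cyp4a12b, against 1.02% of all genes, and 3 had an unadjusted p under 0.05 (17.7%). When control replicate 3 was left out, 11958 genes were tested, and 4.89% passed between HFD+AOS-FMT and HFD, 0% between HFD+control-FMT and HFD, 0.117% between HFD+AOS-FMT and HFD+control-FMT, 6.85% between HFD+AOS and HFD, 1.32% between HFD+AOS and AOS, and 0% between either AOS or HFD and controls. Of the 10 genes, 1 (Cyp4a32) then passed between HFD+AOS and HFD, and 0 in the other 6 comparisons.

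The median log2 difference of the 10 genes was 0.04 in HFD+AOS-FMT against HFD, beside 0.05 over all tested genes. It was 0.10 beside 0.01 in HFD+control-FMT against HFD and 0.05 beside 0.04 in HFD+AOS-FMT against HFD+control-FMT. In HFD+AOS it was -0.08 beside 0.01 against HFD, and 0.01 beside -0.0017 against AOS. Against control it was -0.16 beside -0.09 for AOS and -0.28 beside -0.10 for HFD. The shift of all genes between HFD and control was 0.01 after quantile normalization. For the dependence of the AOS difference on diet, the members' median was 0.35 beside 0.11 over all genes, which quantile normalization moved to -0.0038.

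**Figure D3:**
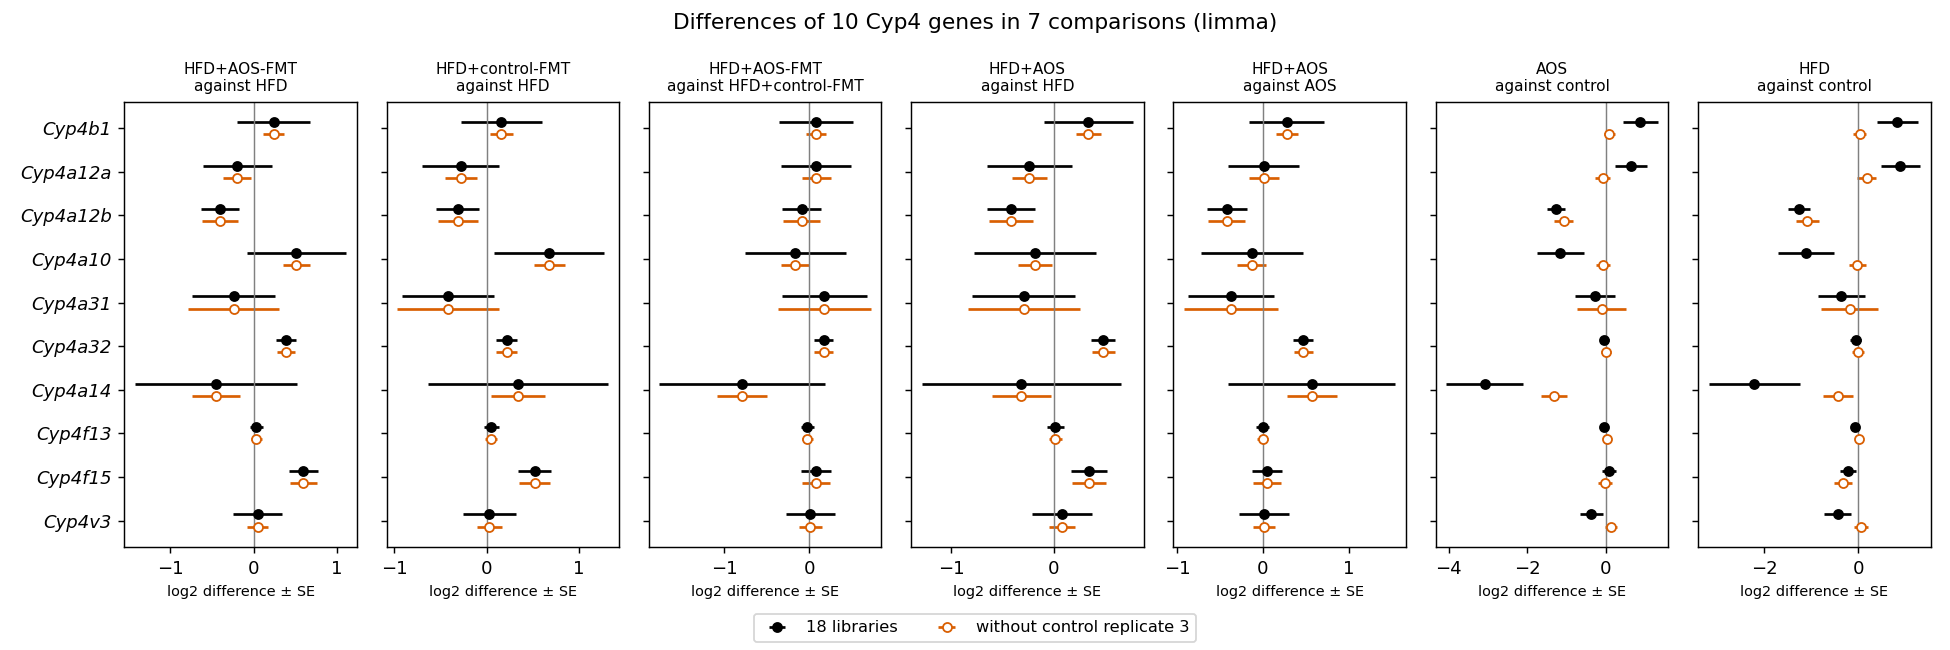
Log2 difference with its standard error (horizontal axis) of the 10 Cyp4 genes (vertical axis) in 7 comparisons, from limma on all 18 libraries (filled) and without control replicate 3 (open). Each panel has its own horizontal range. In the last 2 panels, against control, most differences of the 18 libraries shrink without that library, Cyp4a14 in AOS from -3.09 to -1.31, while Cyp4a12b stays near -1.

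Cyp4b1 (chromosome 4, 115624725 to 115647723, minus strand), which activates several foreign compounds besides its fatty acid role, varied little apart from 1 control library. Its signal was 3130.2, 2798 and 3509 in HFD+AOS-FMT, 3256, 2685 and 2956 in HFD+control-FMT, 3277, 3287 and 3496 in HFD+AOS, 2807, 2837 and 2645 in AOS, 3296, 2644 and 2136 in HFD and 2699.7, 2477 and 492 in controls. The group means in falling order were 3354 ± 123 in HFD+AOS, 3146 ± 355 in HFD+AOS-FMT, 2966 ± 285 in HFD+control-FMT, 2763 ± 103 in AOS, 2692 ± 582 in HFD and 1889 ± 1216 in controls (SD, n = 3 each). Each neighbouring pair in that order overlapped. HFD+AOS lay wholly above HFD+control-FMT, AOS and controls, and HFD+AOS-FMT wholly above controls. Leaving out control replicate 3, limma gave HFD+AOS against HFD a log2 difference of 0.34 with an adjusted p of 0.112, and HFD+AOS against AOS 0.28 with an adjusted p of 0.248, and neither passed.

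Cyp4a12a (chromosome 4, 115299046 to 115332815, plus strand), the main maker of the arachidonic acid product in male mouse kidney, was at 505, 473 and 495 in HFD+AOS-FMT and 479, 388 and 534 in HFD+control-FMT. It was at 479, 631 and 359 in HFD+AOS, 502, 513 and 411 in AOS, 519, 646 and 532 in HFD and 468, 527 and 110.1 in controls. HFD libraries were above all HFD+AOS-FMT libraries and all AOS libraries, and the other groups overlapped HFD. HFD against control had a log2 difference of 0.90 (adjusted p = 0.284, limma), with overlapping groups, and 0.18 without control replicate 3. Summed with Cyp4a12b, the pair gave 522, 648 and 536 in HFD and 475, 533 and 121 in controls.

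Cyp4a12b (chromosome 4, 115411624 to 115439034, plus strand), the near-identical copy of Cyp4a12a, was the member that passed the F test over the 6 groups (adjusted p = 0.0138, limma). Its signal was 1.53, 2.39 and 1.85 in HFD+AOS-FMT, 2.34, 1.91 and 2.02 in HFD+control-FMT, 2.58, 2.05 and 1.18 in HFD+AOS, 4.04, 2.96 and 1.86 in AOS, 3.46, 2 and 3.22 in HFD and 7.83, 6.4 and 10.9 in controls. The 15 libraries outside the control group lay between 1.18 and 4.04, with a median of 2.05, and all 3 controls were above them, while the 5 other groups overlapped each other. Against controls, limma gave a log2 difference of -1.26 ± 0.233 (SE) in AOS (adjusted p = 0.0875) and of -1.26 ± 0.233 in HFD (adjusted p = 0.137), so neither single comparison passed. Without control replicate 3 the F test still passed (adjusted p = 0.0143), with differences of -1.07 for AOS (adjusted p = 0.194) and -1.08 for HFD (adjusted p = 0.339). Without control replicate 2 both single comparisons passed, with adjusted p = 0.0453 for AOS and 0.0209 for HFD. The share of all tested genes that passed also moved when that library was left out, to 0.25% for AOS and 1.81% for HFD.

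The signal of Cyp4a12b was 0.303% to 0.804% of that of Cyp4a12a in the 15 other libraries, against 1.21%, 1.67% and 9.90% in the controls, and the part of reads moved between the copies was not tested. The controls were 3 of the 5 libraries with germ cell transcripts, and with those 5 as a batch term the F test passed for 0 members and for 0% of all tested genes. HFD replicates 1 and 2, which held germ cell transcripts too, had 3.46 and 2.00 of Cyp4a12b signal. All 3 controls and no AOS library held these transcripts, and their part in the Cyp4a12b values was not tested. The log2 differences with the batch term were -1.46 for AOS (adjusted p = 0.861) and -1.33 for HFD (adjusted p = 0.247), and the first rests only on the HFD libraries to tell the batch from the group. The change of the AOS difference with diet was 0.84 (adjusted p = 0.387) and did not pass.

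Cyp4a10 (chromosome 4, 115518264 to 115533649, plus strand), a PPAR alpha inducible hydroxylase, was at 157, 103 and 110.3 in HFD+AOS-FMT and 121, 149.9 and 139 in HFD+control-FMT. It was at 84.7, 59.1 and 81.9 in HFD+AOS, 84.8, 74.4 and 85.7 in AOS, 73.1, 92 and 90.01 in HFD and 93.7, 77.6 and 831 in controls. All 6 transplant libraries, at 103 to 157 with a median of 129.6, were above the 11 other libraries besides control replicate 3, at 59.1 to 93.7 with a median of 84.7. This split was chosen after the values had been seen. Against HFD, the log2 difference was 0.51 in HFD+AOS-FMT (adjusted p = 0.750) and 0.68 in HFD+control-FMT (adjusted p = 1.00) in limma on 18 libraries, with a standard error of 0.596. Without control replicate 3 the standard error was 0.166, the adjusted p was 0.0884 for HFD+AOS-FMT and 0.264 for HFD+control-FMT, and the F test passed (adjusted p = 0.0234). The F test without that library called 6.36% of 11958 genes tested and 3 of the 10 members, Cyp4a10, Cyp4a12b and Cyp4a32.

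Cyp4a31 (chromosome 4, 115563649 to 115579015, plus strand), a close copy of Cyp4a10, did not follow it in the transplant libraries, though both were highest in control replicate 3. It was at 33.1, 54.6 and 30.7 in HFD+AOS-FMT, 28.7, 27.7 and 47.7 in HFD+control-FMT, 49.97, 41.3 and 23.98 in HFD+AOS, 72.9, 61.1 and 24.4 in AOS, 18.1, 70.4 and 71.6 in HFD and 43.04, 61.5 and 73.8 in controls. The spread within a group was wide, as in HFD, and every pair of groups overlapped. The sum of Cyp4a10, Cyp4a31 and Cyp4a32 was 142.9 to 192 in the 6 transplant libraries (median 169), against 92.8 to 164 in the 11 others (median 137), and these ranges overlapped. Cyp4a31 made up 15.4% to 45.8% of that sum in 17 libraries and 8.14% in control replicate 3. The separation of Cyp4a10 alone did not hold for the sum, and which copy the reads came from was not tested.

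**Figure D4:**
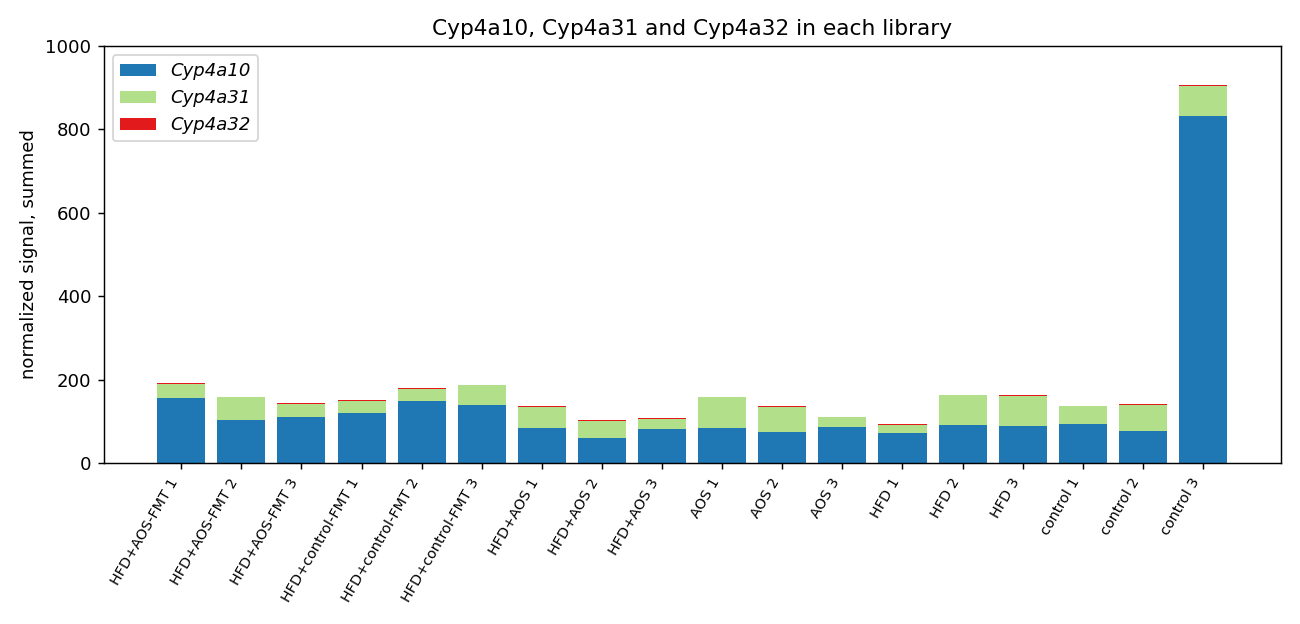
Summed signal (vertical axis, starting at 0) of the near-identical genes Cyp4a10, Cyp4a31 and Cyp4a32 in each of the 18 libraries (horizontal axis), stacked by gene. Sums run from 92.8 to 192 in 17 libraries and reach 906 in control replicate 3, where Cyp4a10 gave 831.

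Cyp4a32 (chromosome 4, 115600969 to 115621602, plus strand), the third gene of that trio by sequence, had a low signal with small spread. It was at 2.31, 1.88 and 1.89 in HFD+AOS-FMT, 1.86, 1.46 and 1.74 in HFD+control-FMT, 1.95, 2.27 and 2.5 in HFD+AOS, 1.38, 1.31 and 1.32 in AOS, 1.5, 1.28 and 1.16 in HFD and 1.01, 1.65 and 1.55 in controls. The 6 libraries of HFD+AOS-FMT and HFD+AOS, at 1.88 to 2.50, lay above the 12 others, at 1.01 to 1.86, a split chosen after the values had been seen. HFD+AOS was above HFD by 0.49 ± 0.116 (log2, SE; adjusted p = 0.0654) and above AOS by 0.47 ± 0.116 (adjusted p = 0.151), and HFD+AOS-FMT was above HFD by 0.39 (adjusted p = 0.169), in limma, and none passed. Without control replicate 3 the first passed (adjusted p = 0.0207, where 6.85% of all genes passed), and the others did not (adjusted p = 0.0555 and 0.0601). It also passed without control replicate 1 (adjusted p = 0.0319, where 1.22% of all genes passed). The difference between HFD+AOS and HFD depended on the pseudocount, at 0.73 with 0.1 and 0.20 with 5. The F test gave Cyp4a32 an adjusted p of 0.0921 on 18 libraries and 0.0346 without control replicate 3. The change of the AOS difference with diet was 0.52 (adjusted p = 0.366), and 0.47 without control replicate 3 (adjusted p = 0.390).

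At 0.713% to 2.31% of the 3 copies' sum in 17 libraries, Cyp4a32 is a small part of the trio, and how much of its signal came from reads of the other copies was not tested. The 16 genes of the clock list summed to 292 to 342 in HFD+AOS-FMT, 182 to 248 in HFD+control-FMT, 304 to 339 in HFD+AOS, 163 to 224 in AOS, 139.6 to 168 in HFD and 132 to 362 in controls. The 6 libraries with the most Cyp4a32, a split chosen after the values had been seen, thus had clock sums of 292 to 342. These were above the other libraries except control replicate 3, which had the highest clock sum (362) and a Cyp4a32 signal of 1.55. The sum weighs abundant genes most, and genes of the list moved in opposite directions. From HFD to HFD+AOS, mean Dbp rose from 5.60 to 78.3 and Tef from 48.0 to 99.0, while Arntl fell from 9.85 to 1.91 and Npas2 from 6.70 to 1.48. The labels give no time of day for the tissue, and the part of clock genes in the Cyp4a32 result was not tested.

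Cyp4a14 (chromosome 4, 115486200 to 115496142, minus strand), strongly PPAR alpha inducible and distinct enough in sequence to be told from the other copies, was low outside 1 library. It was at 2.41, 1.97 and 1.97 in HFD+AOS-FMT, 4.36, 5.56 and 3.43 in HFD+control-FMT, 3.42, 1.97 and 2.03 in HFD+AOS, 1.54, 1.15 and 1.23 in AOS, 2.46, 3.78 and 3.63 in HFD and 8.56, 2.42 and 227 in controls. HFD+AOS-FMT lay below both HFD+control-FMT and HFD, HFD+AOS above AOS, and AOS below controls. AOS against control gave a log2 difference of -3.09 ± 0.975 (SE; adjusted p = 0.345, limma), and -1.31 without control replicate 3 (adjusted p = 0.252). HFD against control gave -2.20 (adjusted p = 0.276) and, without that library, -0.43, with overlapping groups. HFD+AOS-FMT against HFD+control-FMT gave -0.79 without that library (adjusted p = 0.256). The change of the AOS difference with diet was 1.00 without it (adjusted p = 0.472), and the F test then gave an adjusted p of 0.0699. None of these passed.

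Control replicate 3 held 227 of Cyp4a14 signal, 93.9 times the median of the other 17 libraries, and 9.23 times their median of Cyp4a10. Cyp4a12b was at 4.66 times, Cyp4v3 at 3.56 times, Cyp4a31 at 1.71 times and Cyp4f13 at 1.19 times the median there. Cyp4a12a was at 0.219 times and Cyp4b1 at 0.173 times the median, so that Cyp4b1 gave 27.6% of the family's signal in that library, against 46.7% from Cyp4a10 and 12.8% from Cyp4a14. The 6 Cyp4a genes together summed to 1255 there, against 470.2 to 815 in the other 17, and the 10 genes to 1780.1 against 2864 to 4176. Of the PPAR alpha list, 14 of 33 genes were highest and 5 lowest in that library, beside the 49.7% and 9.38% of all tested genes. Of the 7 genes of the female-biased list, 6 were highest and 1 was lowest there. The high adrenal markers, the low androgen responsive genes, the low sum of proximal tubule markers and the high sums of other kidney cell markers occur in this 1 library together, and their parts in its Cyp4 values were not tested.

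**Figure D5:**
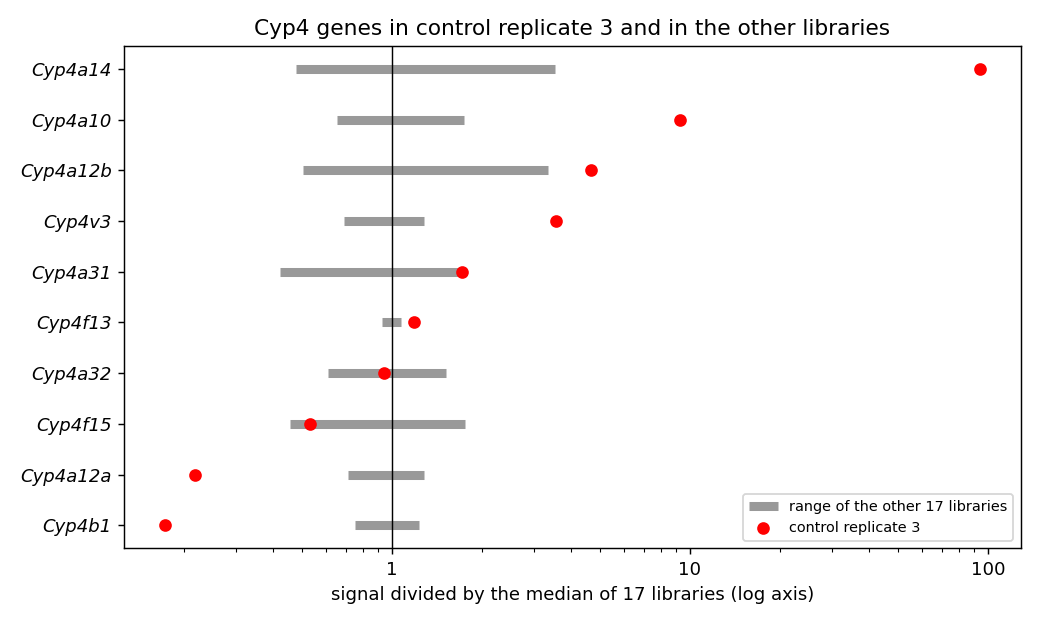
Signal of each Cyp4 gene in control replicate 3 (red points) divided by the median of the other 17 libraries, on a log axis, with the range of those libraries as a grey bar. Cyp4a14 is at 93.9 and Cyp4a10 at 9.23 times the median, beyond the bars, and Cyp4a12a (0.219) and Cyp4b1 (0.173) fall below them.

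Cyp4f13 (chromosome 17, 32924688 to 32947402, minus strand), a hydroxylase of the leukotriene-acting subfamily, had the narrowest range of the 10 genes relative to its level. All 18 libraries lay between 20.99 and 26.8, the highest being control replicate 3, and every group overlapped HFD. Cyp4f15 (chromosome 17, 32685627 to 32703352, plus strand), its relative, was at 1.17, 1.02 and 1.29 in HFD+AOS-FMT, 0.99, 0.77 and 1.42 in HFD+control-FMT, 0.57, 1.11 and 0.81 in HFD+AOS, 1.1, 0.8 and 0.44 in AOS, 0.37, 0.44 and 0.47 in HFD and 1.11, 0.49 and 0.43 in controls. HFD+AOS-FMT, HFD+control-FMT and HFD+AOS each lay wholly above HFD. Limma gave a log2 difference of 0.60 ± 0.176 for HFD+AOS-FMT (adjusted p = 0.165) and 0.52 for HFD+control-FMT (adjusted p = 1.00) against HFD, and neither passed. The adjusted p was 0.0526 for HFD+AOS-FMT and 0.347 for HFD+control-FMT without control replicate 3. At so low a signal the size depended on the pseudocount, at 1.26 and 1.11 with 0.1 and at 0.18 and 0.16 with 5. The F test did not pass for Cyp4f15 (adjusted p = 0.277, and 0.179 without that library). Cyp4v3 (chromosome 8, 45304944 to 45333216, minus strand) was at 1.32 to 2.44 in 17 libraries and 6.80 in control replicate 3, and had no unadjusted p under 0.05.

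The other Cyp4 symbols in the table were low. Cyp4f17 ranged from 2.64 to 7.28, Cyp4f16 from 1.56 to 6.83, Cyp4a30b from 0.12 to 1.80 and Cyp4f14 from 0.160 to 1.60. Cyp4f18, Cyp4f39, Cyp4f37 and Cyp4f40 stayed at or below 0.440.

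Genes that act with the Cyp4 enzymes were read from lists. The PPAR alpha list holds the receptor and its fatty acid oxidation targets. By limma, 0 of the list's 29 tested genes passed in each of 7 contrasts. In HFD+AOS against HFD, where 0.823% of all tested genes passed, 1 did. That gene was Ppara itself, which also passed the F test (adjusted p = 0.0138). It was at 17.9 ± 3.06 in HFD+AOS and 10.97 ± 0.694 in HFD (SD, n = 3 each; log2 difference 0.65, adjusted p = 0.0225). In HFD+AOS-FMT it was at 17.1 ± 0.870 (0.60 against HFD, adjusted p = 0.0527). Ppara was also higher in HFD+control-FMT, at 14.3 ± 1.05 (0.35 against HFD), and this did not pass. The median log2 difference of the list in HFD+AOS against HFD was -0.04, beside 0.01 over all genes. In HFD+AOS-FMT against HFD it was 0.06, beside 0.05, and Slc27a2, a fatty acid transporter and activating enzyme, was at 1663 ± 46.4 in HFD+AOS-FMT and 1228 ± 16.6 in HFD (adjusted p = 0.0672).

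Among 15 tested androgen responsive genes, 0 passed in the 8 contrasts. The list's median log2 difference was 0.41 in AOS and 0.54 in HFD against control, whose group holds control replicate 3, and between -0.07 and 0.08 in the 5 comparisons without controls. Cyp2d9, a male-type P450, was at 37.0 ± 9.21 in HFD and 86.9 ± 38.8 in controls (adjusted p = 0.227). Likewise 0 of 7 tested female-biased genes and 0 of 13 proximal tubule markers passed in the 8 contrasts.

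The omega oxidation list of 15 genes holds the P450 electron donors and the enzymes that act after the hydroxylases, and 0 passed in the 8 contrasts. Por, the reductase that gives electrons to microsomal P450s, was at 209 ± 11.1 in HFD+AOS-FMT and 159.7 ± 24.8 in HFD (adjusted p = 0.1197). Acsl1, which activates fatty acids with coenzyme A, was at 45.5 ± 3.88 in HFD+AOS and 61.4 ± 3.42 in HFD (adjusted p = 0.0896). Of 16 tested genes of other arachidonic acid routes, 0 passed in the 8 contrasts. Cyp2j9, an epoxygenase of the Cyp2j family, was at 13.2 ± 0.485 in HFD+AOS and 8.15 ± 0.457 in HFD (adjusted p = 0.0785).

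Of 15 tested clock genes, 2 passed in HFD+AOS against HFD, 1 higher and 1 lower, where 0.823% of all tested genes passed. Hlf, an output factor of the clock, was at 33.9 ± 1.55 in HFD+AOS and 21.9 ± 1.72 in HFD (log2 difference 0.61, adjusted p = 0.00233), and Arntl, a core clock activator, at 1.91 ± 0.469 in HFD+AOS and 9.85 ± 1.14 in HFD (log2 difference -1.91, adjusted p = 0.0399). In HFD+AOS-FMT against HFD, where 0.175% of all tested genes passed, Hlf passed at 32.3 ± 1.14 in HFD+AOS-FMT (adjusted p = 0.0244). The list's median log2 difference was 0.61 in HFD+AOS and 0.73 in HFD+AOS-FMT against HFD, beside 0.01 and 0.05 over all genes.

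The genes whose signal was most like that of the 3 most abundant members over the 18 libraries were named by Spearman's rho, as a description. Since control replicate 3 stood apart in many genes, rho is also given for the other 17 libraries. For Cyp4b1 they were Ces1f, a carboxylesterase (rho = 0.915, and 0.900 over 17 libraries), Ndfip1 (0.905 and 0.895) and Csnk1g3 (0.853 and 0.826). For Cyp4a12a they were Urah (0.794 and 0.765), Gusb, the androgen responsive beta-glucuronidase (0.767 and 0.723), and Pdk3 (0.736 and 0.686). For Cyp4a10 they were Fga, one of the liver cell markers (0.843 and 0.814), Med31 (0.820 and 0.789) and Agt, which encodes angiotensinogen (0.818 and 0.784). Pearson's r of log2(signal + 1) over the 18 libraries differed more between these genes, from 0.426 for Urah and 0.503 for Ndfip1 to 0.990 for Ces1f.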

How the data were processed

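RNA of frozen kidney was sequenced in 18 libraries, in 6 groups of 3 taken from the sample labels. Per the labels' protocols, Trizol and a column kit were used for extraction, and Illumina libraries were built from 1 µg of RNA. Per the submitters' processing notes, Bowtie 0.12.2 and the mm10 build were used; how reads were counted and normalized is not given in the sources used here. Normalized signal was deposited as 1 table of gene symbols by libraries, with no stated unit. The coefficient of variation of its column sums was 3.50%, or 0.815% once weighted by transcript length, so the signal was treated as scaled for length and depth. Read depth is unknown, so counting intervals cannot be given. From 19545 entries, 26 with symbols changed into dates and 1 repeat of a symbol were dropped, and 17.3% of values were 0.

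The 12030 genes that reached a signal of 1 in no fewer than 3 libraries were fitted in 1 model of all 18 libraries with limma 3.58.1 (R 4.3.3) on log2(signal + 1), with a pseudocount of 1, trend and robust moderation, two-sided tests and Benjamini-Hochberg adjustment over all tested genes. The script was tested on simulated data. Their spread was taken without control replicate 3, so that test does not show how many differences the fit of 18 libraries can find. The members and gene lists were chosen with earlier results of these data known. All members are named, with a p where the unadjusted p was under 0.05 in either the fit of 18 libraries or that without control replicate 3, and from each list the genes with the smallest p in a comparison, of which examples are printed. For the 3 members with the highest mean, the 3 most alike genes by Spearman's rho are named, passing over predicted genes. Alternatives were quantile normalization, other pseudocounts and filters, limma without its trend and robust options, only the compared groups, a replicate block, leaving out each library, and a germ cell batch term. Coding sequences are from GENCODE M21 and promoters from RefSeq (GRCm38.p6).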

Additional observations from a re-analysis of the deposited data

How the results depend on the processing

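All 322 alternative values of the 12 member differences with an unadjusted p under 0.05 kept their direction, and 6 of them passed the threshold where the fit of 18 libraries did not. Leaving out a library of a group outside a comparison returns the same difference, as do several other settings, so much of this was fixed in advance. The 12 differences were also picked by their p in these same data, so the kept direction is no measure of robustness. Of 242 alternative counts of members called, 234 stayed as they were. The counts that moved were these, with the cause not tested. In AOS against control, 1 member, Cyp4a12b, passed with a pseudocount of 5 (adjusted p = 0.0372, among 7 genes in all) and with no filter on low values (adjusted p = 0.0210, among 149), against 4 genes in the fit of 18 libraries. The size of Cyp4a12b against control, in AOS and in HFD, was -1.50 with a pseudocount of 0.1 and -0.75 with 5. The F test over the 6 groups called 0 members and 0 genes of the whole table with the germ cell batch term, which was chosen after seeing the data, with 9 markers, against 123 genes without it. The term planned with all 10 markers is the same in every library and could not be fitted. Leaving out 1 library at a time gave 0 to 1 member in HFD against control (1 without control replicate 2), 0 to 1 in AOS against control (1 without control replicate 2), 0 to 1 in HFD+AOS against HFD (1 without control replicate 1 or 3), 1 to 3 in the F test (3 without control replicate 3) and 0 in the other 5 comparisons. Without control replicate 3, Cyp4a14 in HFD against control moved from -2.20 to -0.43 and Cyp4a12a from 0.90 to 0.18. On average, same-numbered replicates did not deviate together (mean r of -0.0035, against 0.0019 for other numbers), and the numbers were not taken as pairs. In 4 of 21 pairs r was over 0.1. These were in HFD against control (0.26 and 0.22) and in HFD+AOS against HFD (0.17 and 0.16). With the replicate number as a block, 0 members passed in the 8 contrasts and 1 in the F test. Limits are the unknown depth, which leaves the counting error of the low members unknown, the near-identical copies, and groups of 3 in which 1 control library differs in most genes.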
